A study of Mus musculus with 56 samples.

Results

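Ageing of microglia that lack Trem2 was followed by comparing the 7 libraries of old Trem2 -/- microglia with the 7 of young Trem2 -/- microglia, 14 of the 56 libraries of the series. The members were chosen by genotype, age and cell type as the sample labels give them, and every gene with enough counts was tested, 7512 in all. The mice were female. Young mice were 2 months old and old mice 16 to 18 months old, all of these 14 homozygous for the knockout, and each library came from a different animal. Brains were dissociated after perfusion, viable Cd11b+ cells were sorted, and their RNA was sequenced as 3′ tags, which count a gene by the end of its mRNA. Ageing in Trem2 +/+ microglia, from another 7 young and 7 old female mice of the same ages, is used where the genotypes are compared. The knockout allele and the strain are not stated in the labels, so the stretch of the gene that was removed is not known here.

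Microglia are the resident macrophages of the brain. Trem2 is a surface receptor for lipids, lipoproteins and cell debris that signals through the adaptor Tyrobp and the kinase Syk. Around plaques, in demyelination and in aged brains, microglia take up a disease-associated state in which genes such as Apoe, Lpl, Cst7, Itgax and Clec7a are high and homeostatic genes such as P2ry12 and Tmem119 are low. In mouse models of amyloid disease, the early step of this state has been described as independent of Trem2 and the later step as dependent on it. Aged microglia are also known for interferon-stimulated and antigen presentation genes.

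The sort was checked against markers. The 9 microglia markers in the table summed to 22010 to 28130 CPM (read counts brought to an equal library total, after TMM scaling) over the 14 libraries, and none was at 0. Trem2 itself was at 78.4, 89.4 and 162 CPM in young and 77.2, 113 and 174 CPM in old mice (lowest, median and highest of 7), below the lowest Trem2 +/+ value of 296 CPM in every library. A 3′ tag can lie outside the deleted part, so these counts say nothing about protein. Total counts were 491158 to 859301 in young and 200710 to 808524 in old libraries. Total count, genes detected, the share of mitochondrial ribosomal RNA and the RNA integrity number had exact two-sided permutation p of 0.235, 0.212, 0.202 and 0.731 (adjusted p = 0.313, 0.313, 0.313 and 0.731, smallest possible p 5.83e-04). The old libraries of animals 8 and 12 stood apart, with median correlations with their own group of 0.842 and 0.896 against 0.917 to 0.947 for the other 12 libraries. Animal 8 also had the lowest total.

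Cd11b is carried by other myeloid cells as well, and some of their markers were higher in old libraries. Neutrophil markers summed to 459, 515 and 1137 CPM (lowest, median and highest) in young and 437, 881 and 5626 CPM in old libraries, the highest being animal 28. Of the 6 neutrophil markers tested, 6 had a positive log2 fold change and 1 was called, S100a8 (1.48 ± 0.39). Over all genes tested 1.81% were called, the share to set beside each count of marker calls here. Border macrophage markers summed to 1124, 1664 and 2041 CPM in young and 1564, 1719 and 2157 CPM in old libraries. F13a1 (0.60 ± 0.14), Cd163 (0.63 ± 0.17) and Cd209f (1.39 ± 0.23) were called among the 9 tested, while Mrc1 (0.02 ± 0.19) and Pf4 (−0.16 ± 0.18) were not. B cell and plasma cell markers summed to 221, 304 and 398 CPM in young and 374, 398 and 607 CPM in old libraries. Most of that sum was Ighm, which was at 207, 285 and 374 CPM in young and 301, 362 and 458 CPM in old mice, and Cd79a was at 0 in every library. Markers of dendritic cells summed to 13.5 to 40.8 CPM in young and 8.13 to 118 CPM in old libraries, and those of T and NK cells to 26.4 to 51.1 and 25.7 to 47.2 CPM. Monocyte markers summed to 111 to 152 CPM in young and 103 to 470.1 CPM in old libraries, again highest in animal 28, and the 3 tested (Ccr2, Plac8 and Fn1) were positive without being called. Oligodendrocyte markers summed to 351.5 to 784.5 and 460.0 to 1099 CPM, and Mbp (0.81 ± 0.19) was called among the 5 tested. In sorted bulk samples, a change in the share of a cell type and a change of RNA per cell cannot be told apart. The marker genes named here were chosen after their values were seen.

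Genes called higher in old than in young Trem2 -/- microglia included the receptor genes Ly9, Clec7a and Axl, 4 of 15 chemokine genes tested, 9 of 28 interferon-stimulated genes, 4 of 7 MHC class II genes and 5 of 12 MHC class I genes. Those called lower included Gpr165, Rgs7bp, Il7r and Sgk1. With edgeR's quasi-likelihood test, 136 of 7512 genes (1.81%) were called at an adjusted p under 0.05, 122 higher and 14 lower in old mice. At an unadjusted p under 0.05 there were 915. The rises ran from 0.36 to 3.60 on the log2 scale, and 47 of them were over 2-fold, as were 4 of the falls. Across all genes tested the median log2 fold change was −0.01 and 49.3% were positive. Every old library lay above every young one for 38 of the 122, against 50 of all genes tested (0.666%), and below for 5 of the 14, against 10 of all tested (0.133%). The number of calls was 79 with neutrophil markers as a covariate and 40 with that of B cell markers, of which 68 and 39 were among the 136. The B cell sum was 221 to 398 CPM in young and 374 to 607 CPM in old libraries, so it varies with age. As a covariate it can take up part of the age contrast, and the fall in calls does not measure the part of other cells. The number of calls was 138 without animals 8 and 12, with 102 of the 136 among them.

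**Figure D1:**
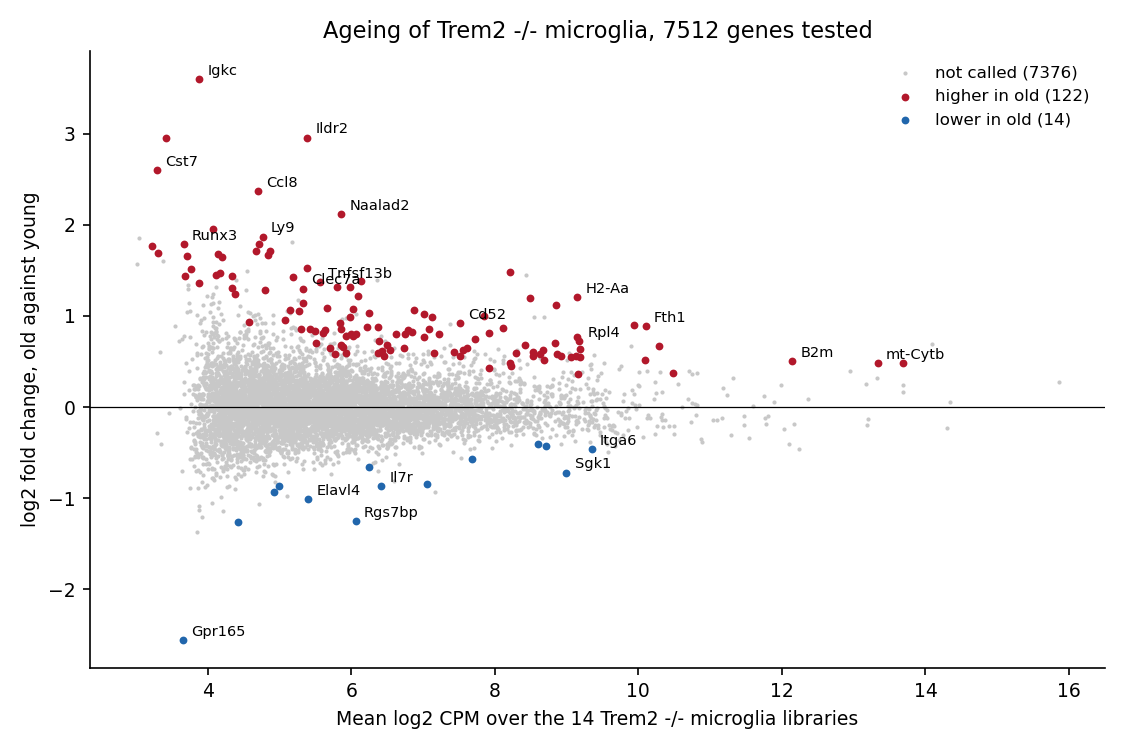
Log2 fold change of old against young Trem2 -/- microglia (vertical axis) against the mean log2 CPM over the 14 libraries (horizontal axis), 1 point per gene tested. Red points are the 122 genes called higher in old mice and blue points the 14 called lower; 47 rises and 4 falls exceed 2-fold, and Igkc, Ildr2 and Gpr165 lie at the extremes.

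The 3 rises with the smallest p, Ildr2, Naalad2 and Ly9, were in genes of surface proteins outside the disease-associated lists. Ildr2 (ENSMUSG00000040612.13, chromosome 1, 166254139 to 166316823, plus strand, GRCm38), an immunoglobulin-like protein of cell contacts, was at 8.21, 12.2 and 19.99 CPM in young and 86.2, 100.3 and 144 CPM in old mice (log2 2.96 ± 0.20, adjusted p = 3.4e-13). The lowest old library held over 4 times the level of the highest young one. Naalad2, a peptidase of the glutamate carboxypeptidase family (ENSMUSG00000043943.14, chromosome 9, 18321951 to 18402995, minus strand), was at 8.16, 27.1 and 36.1 CPM in young and 92.6, 119 and 156 CPM in old mice (log2 2.12 ± 0.19, adjusted p = 7.1e-10). Its groups did not overlap either. Ly9, a receptor of the SLAM family of immune contact receptors (ENSMUSG00000004707.14, chromosome 1, 171588624 to 171607410, minus strand), was at 9.67, 11.5 and 17.6 CPM in young and 32.5, 46.3 and 57.0 CPM in old mice (log2 1.87 ± 0.23, adjusted p = 1.7e-06), again with no overlap. Of the 7 SLAM family genes tested, Slamf9 was also called (log2 0.68 ± 0.19, adjusted p = 0.0469), where 1.81% of all genes were called. The call of Slamf9 was lost without any 1 of animals 2, 4, 8, 14, 16, 22, 24, 26 or 28. It was also lost without the filter and with the neutrophil, B cell or border macrophage marker level as a covariate (adjusted p up to 0.45 over all settings).

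Other genes among the largest rises encode a junction protein, a collagen chain, receptors and a transcription factor. The junction protein gene Mllt4, which encodes afadin, rose from 14.6 ± 6.77 to 47.9 ± 8.82 CPM (mean ± SD, n = 7; log2 1.71 ± 0.26). The collagen VI chain gene Col6a3 rose from 12.3 ± 5.75 to 41.7 ± 10.9 CPM (log2 1.71 ± 0.28), and neither gene's groups overlapped. Hcar2, a receptor for nicotinic acid and the ketone body beta-hydroxybutyrate, was at 3.27, 4.85 and 16.4 CPM in young and 10.3, 25.9 and 48.8 CPM in old mice (log2 1.95 ± 0.36), with an overlap of the ranges. The inhibitory lectin gene Cd22 (log2 1.76 ± 0.45), the transcription factor gene Runx3 (1.79 ± 0.38) and the C-type lectin gene Cd209a (1.78 ± 0.49) were low in young mice, with medians of 2.42, 5.88 and 11.5 CPM, and their groups overlapped. Cd22 was not called without any 1 of animals 4, 14, 18, 22, 24 or 26, with log2 values of 1.498 to 2.18 over all settings. Cd209a is itself a marker of dendritic cells and was lost without any 1 of animals 2, 4, 6, 10, 14, 16, 22, 24, 26 or 28, at 1.32 to 2.14.

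Igkc, the immunoglobulin kappa constant chain gene, had the largest fold of all named genes and one of the widest spreads. It was at 0, 4.90 and 8.48 CPM in young and 0, 45.4 and 123.4 CPM in old mice (log2 3.60 ± 0.82, adjusted p = 0.0104), so at least 1 old library held none. With the B cell marker level, which includes Igkc, as a covariate its log2 fold change was 1.85 (adjusted p = 0.444), and with that of neutrophil markers 2.91 (adjusted p = 0.0977). Wfdc21, a small secreted whey acidic protein family member, was at 8.16, 18.2 and 24.6 CPM in young and 10.3, 36.6 and 175 CPM in old mice (log2 1.67 ± 0.43). Its highest library was animal 28, which also had the highest neutrophil sum, and the log2 fold change was 0.31 (adjusted p = 0.798) with that sum as a covariate. It also lost its call without any 1 of animals 2, 12, 14, 18, 22 or 28. How much other cells contributed to either gene was not tested beyond these values.

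**Figure D2:**
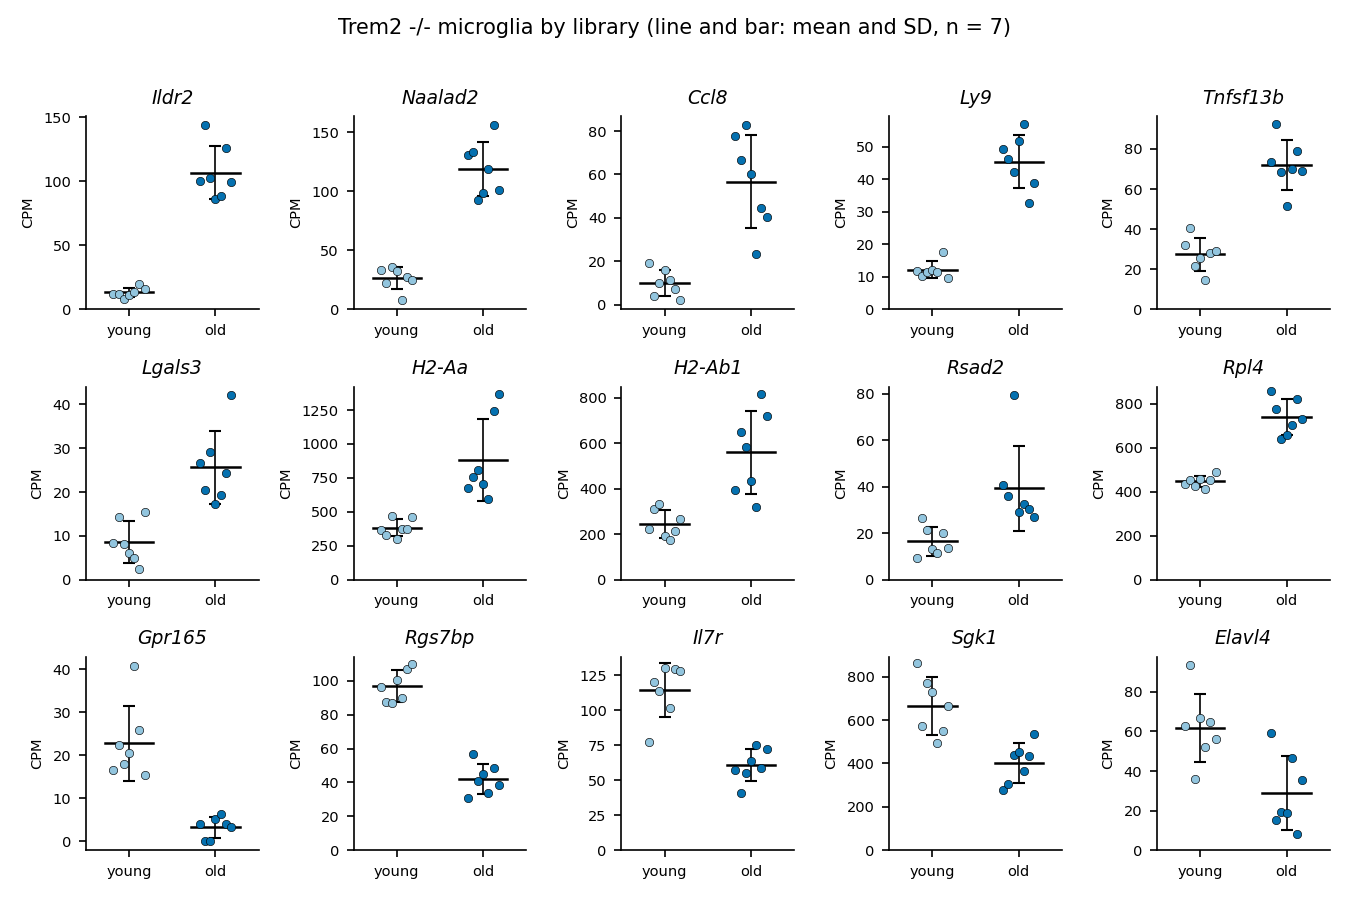
CPM (vertical axis) of 15 named genes in each library of young (light blue) and old (dark blue) Trem2 -/- microglia, with the mean as a line and the SD as a bar, n = 7 a group. Ildr2, Naalad2, Ccl8, Ly9, Tnfsf13b and Lgals3 show no overlap between young and old, Gpr165, Rgs7bp and Il7r none in the opposite direction, and Rsad2 has 1 old library at 79.6 CPM far above the other 6.

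Some disease-associated genes rose and others did not pass the test. Of the 10 first-stage genes tested, 6 were called higher (median log2 0.44), and of 22 second-stage genes 6 were called higher (median 0.45). For both lists the background was 1.81% called and a median of −0.01. The first-stage count was 3 without the filter and 3 and 2 with the neutrophil and the B cell marker level as a covariate. The first-stage median was 0.37 and 0.36 with these levels. Counts of list members here and in what follows are no test of a list. They describe the genes that passed the filter on low counts. That filter was run on all 28 microglia libraries and keeps a gene seen in 1 group alone, also a Trem2 +/+ group. Ferritin heavy chain, Fth1, an iron storage gene, was at 564, 879.9 and 999 CPM in young and 1211, 1646 and 1858 CPM in old mice (log2 0.89 ± 0.14, adjusted p = 2.2e-04), and the groups did not overlap. Lysozyme, Lyz2, was at 479, 589 and 1111 CPM in young and 832, 1481 and 1700.1 CPM in old mice (log2 0.90 ± 0.18), and B2m, the light chain of MHC class I, at 3511, 3752 and 4344 CPM in young and 3878, 5273 and 6573 CPM in old mice (0.51 ± 0.11). Apoe, which encodes the main apolipoprotein of the brain, was at 716, 885 and 1261 CPM in young and 1014, 1279.7 and 1651 CPM in old mice (log2 0.52 ± 0.14, adjusted p = 0.0371), and the cathepsin gene Ctsb at 1075, 1247 and 1447 CPM in young and 1305, 1721 and 1921 CPM in old mice (0.38 ± 0.10). Both ranges overlapped. Apoe was not called without any 1 of animals 2, 4, 8, 12, 14, 18, 22, 24 or 26 (log2 0.40 to 0.61 over all settings), nor Ctsb without any 1 of animals 2, 4, 8, 12, 14, 18, 22, 24 or 28 (0.28 to 0.43). Lyz2 is also made by neutrophils and monocytes, and it stood at 0.65 (adjusted p = 0.0402) with neutrophil markers as a covariate.

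The 6 second-stage calls were Clec7a, Axl, Cd52, Lgals3, Cst7 and Itgax. Of these, Lgals3, Cst7 and Itgax did not pass the filter in the 14 Trem2 -/- libraries alone. They were tested because the Trem2 +/+ libraries were filtered together with them. The young values of Cst7 and Itgax rest on a few reads. Clec7a, a lectin receptor for beta-glucans (ENSMUSG00000079293.11, chromosome 6, 129461591 to 129472779, minus strand), was at 9.67, 26.1 and 28.4 CPM in young and 44.8, 55.7 and 87.4 CPM in old mice (log2 1.30 ± 0.18, adjusted p = 1.2e-05). Axl, a receptor kinase that binds apoptotic cells (ENSMUSG00000002602.16, chromosome 7, 25757273 to 25788705, minus strand), was at 13.1, 26.1 and 37.8 CPM in young and 41.1, 48.3 and 64.0 CPM in old mice (log2 1.05 ± 0.23, adjusted p = 0.00576). In both genes every old library lay above every young one, as it did in Cd52, a small glycoprotein of the leukocyte surface, at 115, 134 and 145 CPM in young and 157, 252 and 325 CPM in old mice (log2 0.92 ± 0.16). The galactose-binding lectin gene Lgals3 was at 2.35, 8.21 and 15.5 CPM in young and 17.2, 24.4 and 42.1 CPM in old mice (log2 1.68 ± 0.30), also without overlap. Cst7, an inhibitor of cathepsins, was at 0, 2.35 and 8.12 CPM in young and 5.05, 12.3 and 45.5 CPM in old mice (log2 2.60 ± 0.50, adjusted p = 0.00155), and its highest old value was animal 12. The integrin gene Itgax, which encodes CD11c, was at 0, 3.27 and 9.67 CPM in young and 5.17, 12.2 and 19.5 CPM in old mice (log2 1.69 ± 0.44, adjusted p = 0.0294). Itgax lost its call without any 1 of animals 2, 4, 6, 10, 12, 14, 18 or 28. It was also lost with the neutrophil or B cell marker level as a covariate (adjusted p up to 0.155 over all settings).

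Lpl and Spp1 did not pass the test. Lipoprotein lipase, Lpl, was at 41.1, 50.8 and 68.6 CPM in young and 15.4, 46.5 and 75.7 CPM in old mice (log2 −0.22 ± 0.22, adjusted p = 0.781), and osteopontin, Spp1, at 3.27, 6.57 and 22.3 CPM in young and 0, 11.4 and 18.5 CPM in old mice (log2 0.15 ± 0.45, adjusted p = 0.945). The old and young ranges overlapped in both genes, and for Lpl 3 of the 7 old libraries lay below the young range and 1 above it. The growth factor genes Igf1 (0.13 ± 0.21) and Csf1 (0.80 ± 0.28) and the tetraspanin gene Cd63 (0.58 ± 0.17) were other second-stage members that did not pass. Of the 25 homeostatic genes tested none passed in either direction (median −0.06, 10 positive), where 1.81% of all genes tested were called. At that share a list of this size may well hold no call, so none passing does not show that its genes were unchanged. P2ry12, a purine receptor, was at 3849.5, 4671 and 5290.0 CPM in young and 3091, 3949 and 4610.0 CPM in old mice (log2 −0.24 ± 0.13, adjusted p = 0.485). The growth factor receptor gene Csf1r was at −0.10 ± 0.12 and Tmem119 at 0.11 ± 0.14, with adjusted p = 0.827 and 0.843. Of the 18 genes of the Trem2 signalling list none passed, among them Tyrobp (0.37 ± 0.17, adjusted p = 0.343) and Syk (−0.32 ± 0.19). The same limit holds for this list.

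**Figure D3:**
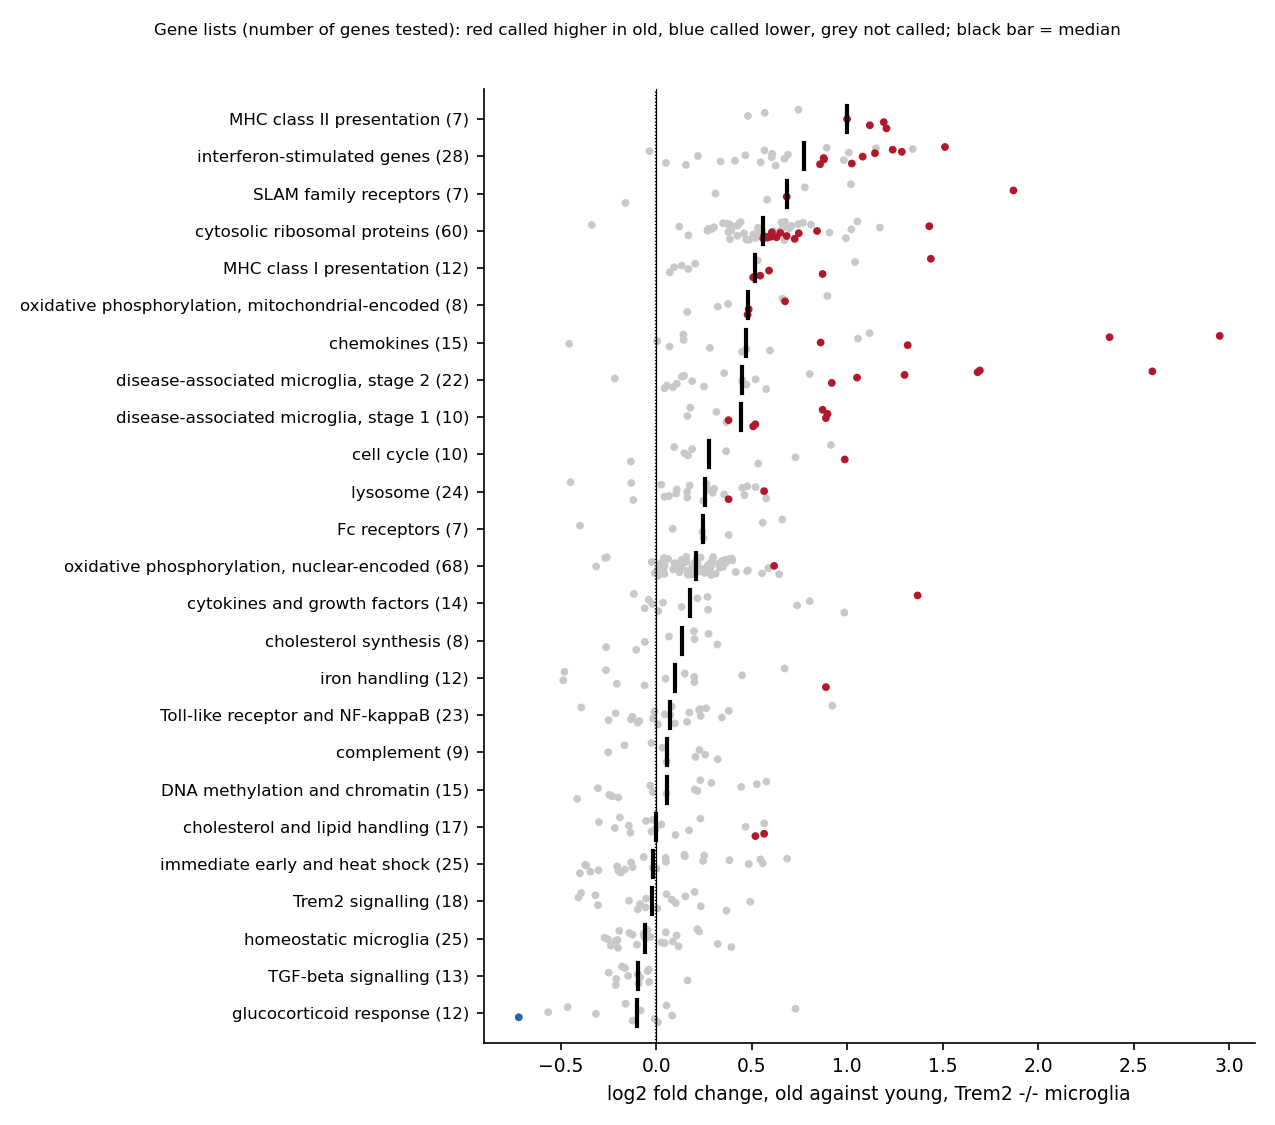
Log2 fold change of old against young Trem2 -/- microglia (horizontal axis) for the tested members of 25 gene lists (vertical axis, number tested in brackets), with red points called higher, blue called lower and grey not called, the black bar at each list's median, and the dotted line at the median of all genes. MHC class II presentation has the highest median, at 0.999, interferon-stimulated genes follow at 0.77, and the homeostatic, Trem2 signalling and TGF-beta lists lie at or just below 0.

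Interferon-stimulated genes, which restrict viruses and sense nucleic acids, had 9 of 28 tested members called higher and none lower, against 1.81% of all genes called. Their median log2 fold change was 0.77 and 27 were positive. The antiviral enzyme gene Rsad2, which encodes viperin (ENSMUSG00000020641.16, chromosome 12, 26442746 to 26456452, minus strand), was at 9.50, 13.5 and 26.4 CPM in young and 26.96, 32.4 and 79.6 CPM in old mice (log2 1.29 ± 0.34, adjusted p = 0.0327). Every old library lay above every young one, and the highest was animal 12. The membrane protein gene Ifitm3, a barrier to virus entry, was at 50.9, 84.7 and 131 CPM in young and 111, 172 and 249 CPM in old mice (log2 1.02 ± 0.21). The nucleic acid sensor gene Zbp1 was at 1.93, 3.64 and 10.6 CPM in young and 11.7, 15.5 and 30.9 CPM in old mice (log2 1.51 ± 0.37), with no overlap. The remaining calls were Oasl2 (1.24), Ifi27l2a (1.15), Ifi204 (1.08), Slfn5 (0.88), Phf11b (0.88) and Lgals3bp (0.86). Isg15 (0.98 ± 0.32, adjusted p = 0.109) and Ifit1 (1.34 ± 0.40, 0.0726) did not pass. Ifi204 has close copies among its neighbours, so its reads may be shared with them.

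The interferon count was 7 without animal 12, 13 without animal 20, 6 without young animal 14 and 5 without both 8 and 12. With the B cell marker level as a covariate it was 2 and with the neutrophil level 5. The list's median log2 fold change was 0.73 and 0.66 in these fits, with 27 and 26 members positive. Rsad2 lost its call without any 1 of animals 2, 4, 12, 14, 18 or 26, and with the neutrophil, B cell or border macrophage marker level as a covariate. Over all settings its log2 fold change was 0.97 to 1.46 and its adjusted p up to 0.183. Zbp1 lost its call without young animal 2 or 14, without 8 and 12 or 6, 8 and 12, and with any of those marker levels (adjusted p up to 0.14). It did not pass the filter in the 14 libraries alone, and its young values rest on a few reads. Ifi27l2a and Ifi204 were called under every alternative run.

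Promoters of these genes are shown because several members rose together and interferon-activated factors bind a known element, the interferon-stimulated response element. It was searched as GAAANNGAAA on both strands in RefSeq windows of 300 bases (250 before and 50 after the annotated start, GRCm38.p6). Of 32851 windows 3.44% held it, as did 3.89% of the 5654 tested genes with a window. Of the 9 called members 6 had a window and 4 of these held a match (Ifitm3, Slfn5, Phf11b and Rsad2), while Oasl2 and Lgals3bp did not. Of all tested members 13 of 21 with a window held one. The 250 bases before the start are printed 5′ to 3′ on the strand of the gene, with the match in capitals, for Rsad2 (chr12:26456453-26456702, minus strand), Phf11b (chr14:59341331-59341580, minus strand) and the chemokine gene Cxcl10 (chr5:92348890-92349139, minus strand). In Ifitm3 a pair of matches lies just after the start (chr7:141010716-141010742, minus strand), and only that stretch is shown.
Rsad2: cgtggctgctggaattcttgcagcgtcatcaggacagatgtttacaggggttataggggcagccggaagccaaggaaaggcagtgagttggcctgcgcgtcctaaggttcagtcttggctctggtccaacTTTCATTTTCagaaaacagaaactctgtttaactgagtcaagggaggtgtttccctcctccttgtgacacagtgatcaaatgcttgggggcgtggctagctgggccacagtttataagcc
Phf11b: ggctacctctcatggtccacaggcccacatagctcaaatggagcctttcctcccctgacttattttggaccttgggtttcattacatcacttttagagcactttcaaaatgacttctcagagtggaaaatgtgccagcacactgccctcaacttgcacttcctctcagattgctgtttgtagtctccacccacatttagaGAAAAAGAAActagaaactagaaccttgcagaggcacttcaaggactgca
Cxcl10: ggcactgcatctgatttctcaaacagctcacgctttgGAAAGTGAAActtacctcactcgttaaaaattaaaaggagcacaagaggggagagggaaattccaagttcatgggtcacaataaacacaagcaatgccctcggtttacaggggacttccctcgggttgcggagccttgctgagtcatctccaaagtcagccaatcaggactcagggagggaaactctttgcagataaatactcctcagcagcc
Ifitm3: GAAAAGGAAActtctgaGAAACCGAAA
The first base of the match was 120 bases before the start in Rsad2, where it reads on the opposite strand, 50 in Phf11b and 213 in Cxcl10. A match describes these letters and is no evidence of binding.

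MHC class II genes, which present peptides to CD4+ T cells, had 4 of 7 tested members called higher (median log2 0.999, 7 positive), against 1.81% of all genes called. The alpha chain gene H2-Aa (ENSMUSG00000036594.14, chromosome 17, 34282744 to 34287823, minus strand) was at 302, 374 and 467 CPM in young and 595, 756 and 1369.8 CPM in old mice (log2 1.21 ± 0.18, adjusted p = 8.2e-05), with no overlap. H2-Ab1, its beta chain partner, was at 176, 223 and 333 CPM in young and 318, 581.9 and 817 CPM in old mice (log2 1.19 ± 0.20), and the lowest old library lay just below the highest young one. The beta chain gene H2-Eb1 was at 221, 315 and 469.8 CPM in young and 398, 782 and 922 CPM in old mice (log2 1.12 ± 0.20) and the invariant chain gene Cd74 at 109, 159 and 226 CPM in young and 205, 334 and 477 CPM in old mice (0.999 ± 0.21). The peptide exchange genes H2-DMa (0.48 ± 0.20) and H2-DMb1 (0.57 ± 0.18) and the modulator gene H2-Ob (0.74 ± 0.22) did not pass. The summed level of the list was 1061 to 1784 CPM in young and 1813 to 3799 CPM in old libraries, so the groups did not overlap. B cells, border macrophages and dendritic cells carry these genes too, and their part in the rise was not tested beyond the following counts. All 4 were called with the border macrophage marker level as a covariate, 3 with the neutrophil level and 2 with the B cell level (H2-Aa and H2-Ab1). The list's median was 0.83 with the neutrophil and 0.73 with the B cell level.

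The H2-Aa and H2-Eb1 promoters are shown for the CCAAT letters of the Y box, a part of the MHC class II promoter. CCAAT was found on either strand in 37.4% of the 32851 windows, in 42.1% of tested genes with one and in 5 of 5 class II members with one, so it is common everywhere. The 250 bases before the start are given for H2-Aa (chr17:34287824-34288073, minus strand) and H2-Eb1 (chr17:34305617-34305866, plus strand), with matches in capitals.
H2-Aa: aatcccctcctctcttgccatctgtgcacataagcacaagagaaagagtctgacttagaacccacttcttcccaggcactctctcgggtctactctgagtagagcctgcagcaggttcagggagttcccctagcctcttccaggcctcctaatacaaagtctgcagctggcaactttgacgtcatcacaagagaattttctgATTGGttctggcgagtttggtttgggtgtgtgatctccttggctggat
H2-Eb1: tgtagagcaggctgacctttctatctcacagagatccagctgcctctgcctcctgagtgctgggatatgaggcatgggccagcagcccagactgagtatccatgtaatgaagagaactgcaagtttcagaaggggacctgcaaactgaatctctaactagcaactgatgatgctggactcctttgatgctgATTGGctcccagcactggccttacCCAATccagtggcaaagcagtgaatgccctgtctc
The match began 48 bases before the start in H2-Aa and 59 in H2-Eb1, both on the opposite strand, and H2-Eb1 had another at 35.

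MHC class I genes, which present peptides to CD8+ T cells, had 5 of 12 tested members called higher (median log2 0.52, 12 positive), against 1.81% of all genes called. The heavy chain gene H2-D1 was at 132, 212 and 264 CPM in young and 247, 362 and 504 CPM in old mice (log2 0.87 ± 0.16), H2-K1 at 435, 473 and 532 CPM in young and 512, 726 and 989.9 CPM in old mice (0.54 ± 0.12) and H2-Q7 at 2.37, 4.90 and 8.48 CPM in young and 10.3, 14.3 and 22.3 CPM in old mice (1.44 ± 0.31). Only H2-Q7, of the 3, showed no overlap, and at totals from 200710 counts in old libraries its lowest values rest on a few reads. These heavy chain genes are near-identical over long stretches, so the split of reads between them is uncertain. B2m and the immunoproteasome subunit gene Psmb8 (0.59 ± 0.15) were the other calls. The peptide transporter genes Tap1 (0.13 ± 0.28) and Tap2 (1.04 ± 0.59) did not pass. The count was 3 without animals 8 and 12, 2 without the filter and 1 with either the neutrophil or the B cell marker level as a covariate. With these levels the median was 0.415 and 0.458.

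Chemokines, which draw leukocytes to a site, had 4 of 15 tested members called higher (median log2 0.47), against 1.81% of all genes called. Ccl8, a ligand for monocytes and T cells (ENSMUSG00000009185.2, chromosome 11, 82115185 to 82116799, plus strand), was at 1.93, 9.86 and 18.999 CPM in young and 23.3, 60.3 and 82.9 CPM in old mice (log2 2.37 ± 0.34, adjusted p = 3.0e-05), and every old library lay above every young one. Cxcl13, the B cell attractant of lymphoid follicles, was at 0, 1.93 and 7.27 CPM in young and 3.89, 17.2 and 47.1 CPM in old mice (log2 2.95 ± 0.74). Cxcl10, an interferon-induced ligand of CXCR3, was at 19.6, 32.9 and 75.1 CPM in young and 46.3, 77.8 and 250.3 CPM in old mice (log2 1.32 ± 0.33), and the scavenger receptor ligand Cxcl16 at 14.7, 29.1 and 49.3 CPM in young and 31.1, 56.6 and 86.1 CPM in old mice (0.86 ± 0.24). Ccl2 (0.01 ± 0.46), Ccl3 (0.60 ± 0.22), Ccl4 (0.45 ± 0.26) and Ccl5 (1.06 ± 0.30) did not pass. Ccl8 was the 1 member called without animal 12, without young animal 2 or without young animal 18, and with the neutrophil or B cell marker level as a covariate. With these levels the list's median was 0.31 and 0.59. Without animal 28 or young animal 26 the count was 2.

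Of 14 cytokine and growth factor genes tested, 1 was called, against 1.81% of all genes. Tnfsf13b, which encodes the B cell survival factor BAFF (ENSMUSG00000031497.9, chromosome 8, 10006467 to 10039072, plus strand), was at 14.7, 28.2 and 40.6 CPM in young and 51.7, 70.0 and 92.6 CPM in old mice (log2 1.37 ± 0.18, adjusted p = 8.5e-06), and the groups did not overlap. Il1b (0.99 ± 0.30, adjusted p = 0.0761) and Tnf (0.74 ± 0.30, adjusted p = 0.264) did not pass. None of 9 complement genes, 7 Fc receptor genes, 23 genes of Toll-like receptor and NF-kappaB signalling, 13 of TGF-beta signalling, 15 of DNA methylation and chromatin or 25 immediate early and heat shock genes passed. In the TGF-beta list 1 of the 13 was positive (median −0.10). The immediate early list, which rises with cell dissociation, had a median of −0.02.

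Some lipid, lysosomal, iron handling and cell cycle genes passed the test, where 1.81% of all genes tested were called. Of 17 cholesterol and lipid handling genes Apoe and Npc2 were called (median −0.002, 8 positive). Npc2, the soluble cholesterol carrier of the lysosome, was at 336, 388 and 487 CPM in young and 452, 597 and 799.7 CPM in old mice (log2 0.57 ± 0.14), and it was not called without animal 12 (log2 0.40 to 0.63 over all settings). The cholesterol exporters Abca1 (−0.02 ± 0.17) and Abcg1 (−0.14 ± 0.21), the esterifying enzyme gene Soat1 (0.17 ± 0.15) and the lipid droplet coat gene Plin2 (−0.05 ± 0.26) did not pass. None of 8 cholesterol synthesis genes was called (median 0.13). Of 24 lysosomal genes Npc2 and Ctsb were called (median 0.26, 21 positive), and of 12 iron handling genes Fth1. The light chain ferritin gene Ftl1 was at 0.67 ± 0.39 (adjusted p = 0.521). Of 10 cell cycle genes 1 was called, the G1 cyclin gene Ccnd2, at 34.8, 41.6 and 56.8 CPM in young and 50.4, 77.6 and 138 CPM in old mice (log2 0.99 ± 0.17), while Top2a (0.91 ± 0.32), a gene of dividing cells, did not pass.

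Of 60 cytosolic ribosomal protein genes tested 13 were called higher, against 1.81% called over all genes, and 59 were positive (median log2 0.56). Rpl4, a large subunit gene, was at 413, 452 and 489 CPM in young and 639, 729.6 and 857 CPM in old mice (log2 0.73 ± 0.10, adjusted p = 1.7e-05), with no overlap. The stalk gene Rplp0 (0.65 ± 0.13) and the large subunit gene Rpl22 (0.56 ± 0.13) were likewise without overlap. The largest fold among the calls was that of the small subunit gene Rps4x, at 7.74, 24.5 and 44.7 CPM in young and 20.6, 64.8 and 101 CPM in old mice (log2 1.43 ± 0.38), with overlapping ranges. Rps4x lost its call without any 1 of animals 2, 6, 10, 16, 18, 24, 26 or 28. It was also lost with DESeq2 and with the neutrophil, B cell or border macrophage marker level as a covariate (adjusted p up to 0.145 over all settings). Ribosomal protein genes have many processed copies in the genome that can share their reads, so values of single members are uncertain. The summed level of the list was 8926 to 11380 CPM in young and 12070 to 17000 CPM in old libraries. Calls numbered 14 without animals 8 and 12, 21 without the filter, 25 with a term for runs of 4 animal numbers, 7 with the neutrophil and 3 with the B cell marker level as a covariate. The list's median was 0.5 with the neutrophil and 0.51 with the B cell level.

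Genes of the respiratory chain had smaller folds. Of 8 tested genes encoded in mitochondrial DNA 3 were called (median log2 0.48, against 1.81% of all genes called), mt-Co1 (0.67 ± 0.16), mt-Cytb (0.48 ± 0.13) and mt-Nd4 (0.48 ± 0.12). The count was 0 without animal 28, 1 without animal 24, young animal 2 or young animal 10, 5 without animal 12 or without both 8 and 12, and 0 with either the neutrophil or the B cell marker level as a covariate. With these levels the median was 0.468 and 0.47. Of 68 nuclear-encoded genes 63 were positive (median 0.21) and 1 was called (against 1.81% of all genes), the cytochrome oxidase subunit gene Cox4i1 (0.62 ± 0.17, adjusted p = 0.0461), whose call was lost without any 1 of animals 4, 6, 8, 12, 14, 18, 22, 24, 26 or 28.

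Few genes fell. Gpr165, an orphan receptor gene (ENSMUSG00000031210.10, chromosome X, 96713441 to 96719388, plus strand), was at 15.5, 20.6 and 40.8 CPM in young and 0, 4.06 and 6.48 CPM in old mice (log2 −2.55 ± 0.41, adjusted p = 1.7e-04), and every old library lay below every young one. Rgs7bp, which anchors regulators of G protein signalling (ENSMUSG00000021719.9, chromosome 13, 104945904 to 105054930, minus strand), was at 87.1, 96.2 and 110.2 CPM in young and 30.7, 40.6 and 56.6 CPM in old mice (log2 −1.25 ± 0.19, adjusted p = 9.4e-05), also without overlap. The interleukin 7 receptor gene Il7r was at 77.2, 119.8 and 129.7 CPM in young and 41.1, 58.9 and 75.2 CPM in old mice (log2 −0.87 ± 0.18), and its groups did not overlap by a margin of about 2 CPM. The glucocorticoid-induced kinase gene Sgk1 was at 496, 667 and 862 CPM in young and 276, 437 and 537 CPM in old mice (log2 −0.72 ± 0.15, adjusted p = 0.00356). It was the 1 call among 12 glucocorticoid response genes (against 1.81% of all genes called), where Tsc22d3 (−0.46 ± 0.22) and Fkbp5 (−0.16 ± 0.23) did not pass.

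The other named falls were smaller or less even. The RNA-binding protein gene Elavl4 fell from 61.7 ± 17.4 to 29.1 ± 18.6 CPM (log2 −1.01 ± 0.25), the sulfotransferase gene Chst7 from 39.1 ± 12.6 to 19.6 ± 5.33 CPM (−0.93 ± 0.22) and the latrophilin gene Adgrl2 from 40.5 ± 8.64 to 21.1 ± 7.80 CPM (−0.87 ± 0.21). Itga6, the laminin receptor integrin alpha 6 (−0.46 ± 0.12), Fchsd2 (−0.57 ± 0.15), Scoc (−0.42 ± 0.10) and the transcriptional repressor gene Klf3 (−0.40 ± 0.11) fell by less than 2-fold, and of these 4 Klf3 alone showed no overlap. Calls were lost without any 1 of animals 6, 16 or 24 for Elavl4, 2 for Chst7, 26 or 28 for Adgrl2, 4, 8, 12, 22 or 26 for Itga6, 2, 4, 8, 14, 16, 22 or 24 for Fchsd2 and 2, 4, 6, 8, 12, 14, 18, 22, 24 or 26 for Klf3. The largest adjusted p over all settings were 0.175, 0.118, 0.254, 0.253, 0.35 and 0.316 in the same order, and each kept its sign. Elavl4 is known from neurons, and the summed neuron markers were 55.3, 65.4 and 195 CPM in young and 29.8, 65.0 and 98.2 CPM in old libraries. All 4 neuron markers tested had a negative log2 fold change (median −0.62) and none was called, where 1.81% of all genes tested were. Their part in the fall of Elavl4 was not tested.

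The same ageing contrast in Trem2 +/+ microglia shares no library with this one. There 383 of 7512 genes (5.1%) were called, 278 higher and 105 lower. Of the 122 rises without Trem2, 82 were also called higher with it, which is 67.2% of the 122 and 29.5% of the 278. Of the 14 falls 9 were shared (64.3% of the 14 and 8.6% of the 105). Of the 122, 121 had a positive log2 fold change in Trem2 +/+ mice, with medians of 0.86 without and 0.79 with Trem2. Of the 278 rises with Trem2, 272 were positive without it, with medians of 0.95 and 0.56. Each median is highest in the genotype whose calls chose the genes.

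Differences between the ageing effects were tested directly, and 2 of 7512 genes (0.0266%) were called, Lpl and Spp1, with 354 at an unadjusted p under 0.05. With Trem2, Lpl rose from 86.4 ± 27.4 to 437 ± 80.4 CPM and Spp1 from 24.6 ± 14.5 to 325 ± 115 CPM (mean ± SD, n = 7). The ageing effect without Trem2 was lower by 2.51 ± 0.28 for Lpl (adjusted p = 7.7e-07) and by 3.75 ± 0.56 for Spp1 (adjusted p = 2.5e-04) on the log2 scale. For the other second-stage genes the difference did not pass, which does not show that the effects are alike. It was −0.90 ± 0.31 for Axl (unadjusted p = 0.00683), −0.51 ± 0.22 for Cd52 (unadjusted p = 0.0267), −0.27 ± 0.23 for Clec7a, −0.39 ± 0.84 for Cst7, −0.41 ± 0.64 for Itgax and 0.13 ± 0.38 for Lgals3, with adjusted p of 0.984 or more.

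**Figure D4:**
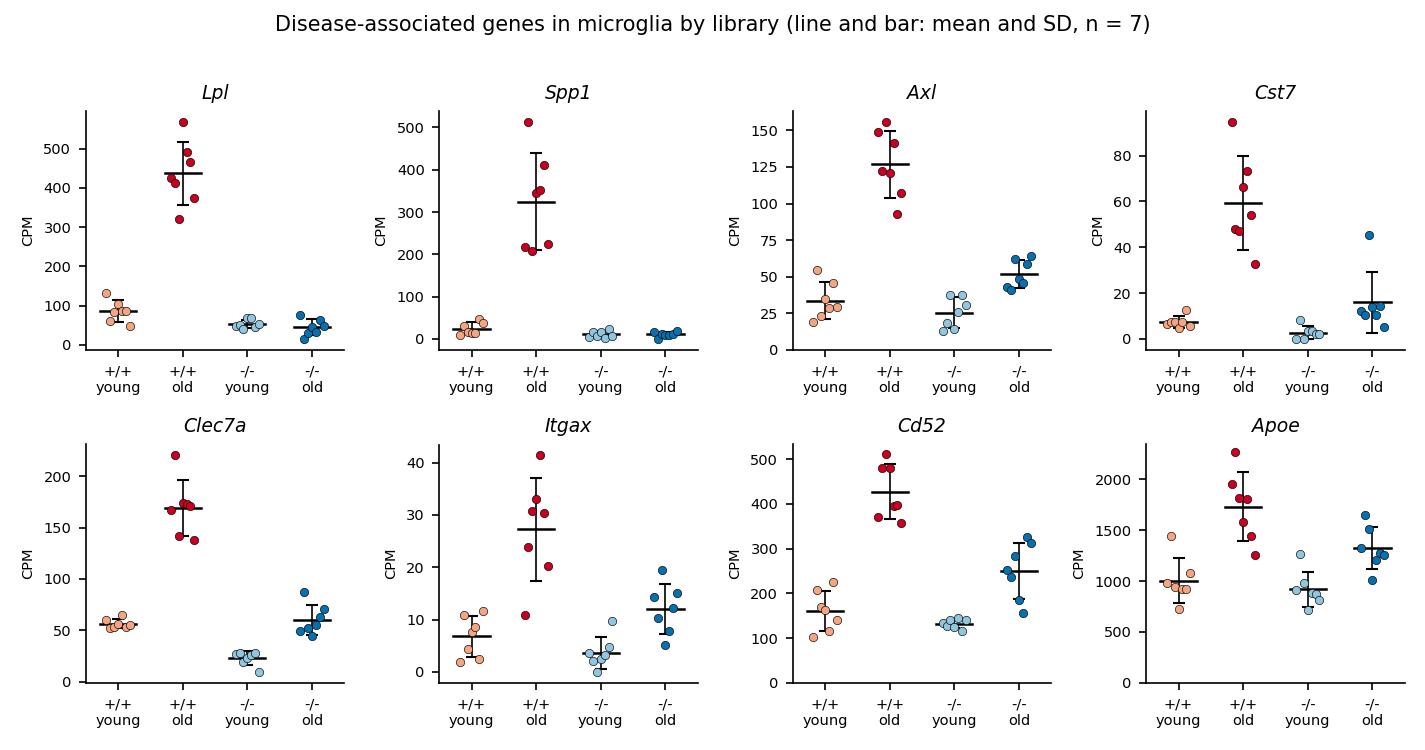
CPM (vertical axis) of 8 disease-associated genes in each microglia library of the 4 groups of genotype and age, with mean lines and SD bars, n = 7 a group. Lpl and Spp1 are high in old Trem2 +/+ mice alone, while Axl, Cst7, Clec7a, Itgax, Cd52 and Apoe are higher in old than in young mice of both genotypes, and at both ages the mean of each of the 8 genes is lower in Trem2 -/- than in Trem2 +/+ mice.

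Among the 122 rises none differed between genotypes past the threshold, and 14 did at an unadjusted p under 0.05, against 354 of all 7512 genes. The 122 were chosen by the ageing effect without Trem2, which is part of this contrast. Their unadjusted p therefore lean toward a difference. Runx3 stood at 1.79 ± 0.38 without and 0.01 ± 0.36 with Trem2, a difference of 1.77 ± 0.53 (unadjusted p = 0.00175, adjusted p = 0.939). Its young mean was 5.12 ± 3.50 CPM without and 12.2 ± 5.33 CPM with Trem2. Rsad2 differed by 1.04 ± 0.48 (unadjusted p = 0.0363) and H2-Ab1 by 0.62 ± 0.29 (unadjusted p = 0.0366). Cd163, a scavenger receptor of border macrophages chosen after its values were seen, stood at 0.63 ± 0.17 without and −0.46 ± 0.18 with Trem2, and the difference of 1.09 ± 0.25 had an unadjusted p of 8.2e-05 and an adjusted p of 0.206. The class II list had 4 calls without and 1 with Trem2 (medians 0.999 and 0.57), and the interferon list 9 and 8 (0.77 and 0.58). In the ribosomal list there were 13 and 32 calls (medians 0.56 and 0.64), where 1.81% and 5.1% of all genes tested were called. No member of these 3 lists was called for the difference. The first-stage disease-associated list had 6 calls without and 8 with Trem2 (medians 0.44 and 0.68). In the second-stage list there were 6 and 11 (0.45 and 0.65), and it holds Lpl and Spp1, the 2 genes called for the difference. Of the homeostatic list none was called without Trem2, while 1 was called higher and 6 lower with it (medians −0.06 and −0.21).

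**Figure D5:**
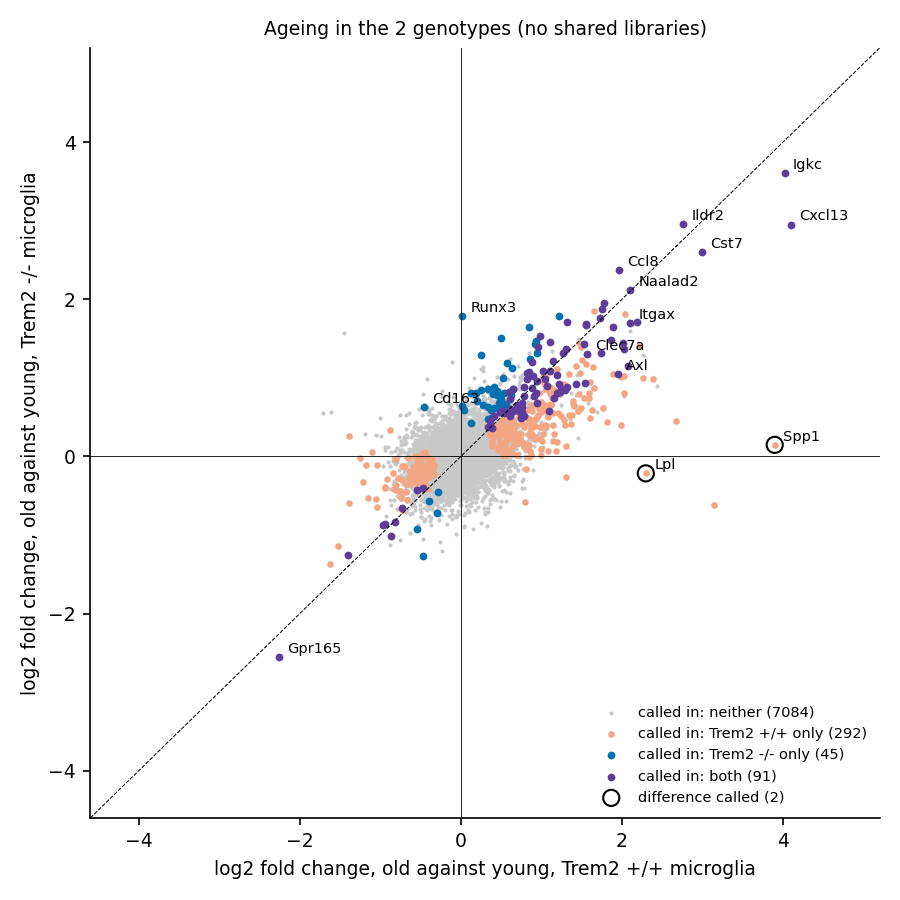
Log2 fold change of old against young microglia without Trem2 (vertical axis) against the same with Trem2 (horizontal axis), 1 point per gene, coloured by the genotype in which it was called; the dashed line marks equal effects. The 91 genes called in both have the same sign in both, some of them off the line, such as Axl (1.05 without and 1.95 with Trem2), and the circled Lpl and Spp1, whose ageing effects differed past the threshold, lie far below it.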

How the data were processed

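Cd11b+ microglia of 28 female mice were measured, 7 in each group of Trem2 genotype and age, and the 14 Trem2 -/- libraries carry the comparison described. The authors deposited a table of whole-number counts per gene without normalization. It holds 53801 Ensembl identifiers, of which 53706 matched GENCODE M21 by identifier without version. STAR, FastQC 0.11.5, R 3.4.3 and MultiQC and the build GRCm38.p6 are named in the submitters' processing notes. Not given in the sources used here are the counting program, its strand setting and any collapsing by molecular identifier, so the values are read as counts and not as molecules, and reads of a gene and an overlapping or antisense partner may not be told apart. Total counts ran from 200710 to 859301 over the 14 libraries.

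From these counts, edgeR 4.0.16 in R 4.3.3 was run with TMM scaling, its quasi-likelihood test after filterByExpr, and Benjamini-Hochberg adjustment over all 7512 genes tested, with a threshold of 0.05. The 28 microglia libraries were fitted together with 1 mean per group, and the ageing effect in each genotype and their difference were contrasts of that fit. Log2 fold changes are given ± SE, and CPM are TMM-scaled. The quasi-likelihood fit was run on counts simulated from its own estimates of spread. These held no other cell types and no outlying animals, so the run cannot speak to either. Pairs of replicates of a group (84 in all) differed by more than counting error, with a chi-square per degree of freedom of 1.82 to 9.19, so no library was counted as a copy. Library measures were compared with exact permutation tests over all 3432 splits of 7 against 7.

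Named genes were, among calls with a proper name and a mean of 3 or more on the log2 CPM scale, the 16 largest rises and 12 largest falls, every called member of a pathway list, and Trem2, Tyrobp, Lpl, Spp1, Cst7, Clec7a, Itgax, Axl, Apoe, Csf1r, P2ry12 and Tmem119. Members of the lists that did not pass the test are given as examples and were chosen after their values were seen. The comparison, lists, tests and naming rule were chosen with earlier results of these data known. 1 gene that the naming rule picks is not reported here. Alternatives were RLE scaling, no filter, DESeq2 1.42.0, limma-voom (limma 3.58.1), covariates (RNA integrity number, runs of 4 animal numbers, and the summed level of neutrophil, B cell or border macrophage markers), the 14 libraries alone and each left out in turn. Fits without animals 8 and 12, and without 6, 8 and 12, were added after seeing the data. No batch is stated in the labels used here.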

Additional observations from a re-analysis of the deposited data

Results flagged for a closer look

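Among 168 groups of 7 libraries, 12 (7.1%) held a library whose gap to the nearest other, as a share of the group's range, exceeded Dixon's 95% critical value, and chance gives about 1 in 20. The groups were those of the named genes, of the total count and of the share of mitochondrial ribosomal RNA. Animal 12 was the highest old library for Cst7 (45.5 CPM, next 14.2), Rsad2 (79.6 CPM, next 40.9) and Scoc (496 CPM, next 352). Animal 8 was the highest old library for Tmem119 (962 CPM, next 641). Animal 28 was the highest for Wfdc21 (175 CPM, next 79.6) and mt-Nd4 (20990 CPM, next 16200), and animal 20 the lowest for Rps3 (320.1 CPM, next 489). In young mice animal 6 was the highest library for Cd22 (10.2 CPM, next 4.75) and Trem2 (162 CPM, next 100.2). The highest young values of Ly9 (17.6 CPM, animal 22), Gpr165 (40.8 CPM, animal 18) and Psmb8 (67.7 CPM, animal 2) also stood apart.

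The ageing effect differed between genotypes, by the interaction contrast of edgeR's quasi-likelihood test, for Lpl (log2 −2.51 ± 0.28, adjusted p = 7.7e-07) and Spp1 (−3.75 ± 0.56, adjusted p = 2.5e-04), both lower without Trem2.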

How the results depend on the processing

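For old against young Trem2 -/- microglia, the 136 calls became 225 without the filter (113 of the 136 among them), 244 with limma-voom (132), 243 with a term for runs of 4 animal numbers (136), 79 with the neutrophil marker level (68) and 40 with the B cell marker level (39). RLE, DESeq2, the RNA integrity number, the border macrophage level, the 14 libraries alone and the fits without animals 8 and 12 or 6, 8 and 12 gave 112 to 188 calls. Leaving out 1 library gave 103 to 190, lowest without young animal 14 and highest without old animal 20. In Trem2 +/+ microglia the 383 calls became 156 with the neutrophil level. The difference of the ageing effects had 25 calls without the filter in place of 2, and 2 to 3 with 1 library left out. Of the 75 named genes called, 21 were called in each of the 26 settings, and none changed sign where it was tested. Of 11 that the filter removed from the fit of the 14 libraries alone, 5 (Cst7, Gpr165, Hcar2, Lgals3 and Runx3) were called in the other 25 settings. The rest of the 11 were Cd22, Cxcl13, H2-Q7, Igkc, Itgax and Zbp1. Among genes not called, the log2 fold change of Spp1 turned from 0.15 to −0.067 with the neutrophil level and ran from −0.031 (without young animal 2) to 0.49 with 1 library left out, and that of Tmem119 ran from −0.017 (without old animal 8) to 0.22. The cause of these changes was not tested. No paired analysis was possible because young and old mice share no animal number, and the labels do not say that a run of 4 numbers marks a shared litter or day. At these depths genes below about 3 on the log2 CPM scale were mostly not tested, and small changes in genes of low count were not detectable.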
